A study of Mus musculus with 8 samples.

Results

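The 10 genes described here set the pace of the G1 phase of the cell cycle. They are 5 inhibitors of cyclin-dependent kinases (CDKs), *Cdkn1a*, *Cdkn1b*, *Cdkn2a*, *Cdkn2b* and *Cdkn2c*, and 5 G1 cyclins, *Ccnd1*, *Ccnd2*, *Ccnd3*, *Ccne1* and *Ccne2*. They were listed by gene name, with earlier results of these data known, and all 10 were found among the 56923 genes of the count tables. The 8 bulk RNA libraries came from thymic epithelial cells (TECs) of untreated wild-type mouse embryos at E16.5, sorted for the epithelial surface protein EpCAM, in 4 groups of 2. *In vivo* TECs were lysed straight after sorting. TECs cultured in 2D grew on laminin and were collected as a confluent layer after 3 days. Organoids grew from sorted TECs in drops of Matrigel, a basement membrane gel, and were collected on day 3 (D3 organoids) or day 7 (D7 organoids). Both kinds of culture received the same defined medium with the growth factor FGF7. In organoid culture this medium held the small molecule thiazovivin on the initial 2 days. The paper does not say whether the 2D medium held thiazovivin too. No stroma or thymocytes were added back to either culture, and the day of collection differed between 2D and D7 organoids. The labels name the libraries of a group as biological replicates. The question was which of the inhibitor genes differ where proliferation genes are low, in 2D and in D7 organoids.

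Cells leave G1 when the retinoblastoma protein RB is phosphorylated and lets go of E2F transcription factors, which switch on the genes of DNA replication. D-type cyclins start this step with CDK4 or CDK6, and E-type cyclins, which are themselves E2F targets, complete it with CDK2. The INK4 inhibitors, p16INK4a from *Cdkn2a*, p15INK4b from *Cdkn2b* and p18INK4c from *Cdkn2c*, bind CDK4 and CDK6 and keep D-type cyclins off them. The Cip/Kip inhibitors, p21 from *Cdkn1a* and p27 from *Cdkn1b*, bind whole cyclin-CDK complexes and block CDK2 above all. *Cdkn1a* is a classical target of p53 and *Cdkn2b* of TGF-beta signalling. FGF7 signals through a receptor kinase of epithelial cells, and *Ccnd1* is a common endpoint of such mitogen signals.

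The 3 inhibitors that were high together in 2D, *Cdkn1a*, *Cdkn2a* and *Cdkn2b*, start from the promoters shown here, from 250 bases before to 50 bases after a transcription start site. RefSeq windows on the older build GRCm38.p6 were at hand for 7 of the 10 genes, 11 windows in all, and not for *Ccnd1*, *Ccnd2* and *Ccne2*. Capitals mark matches on either strand to an E2F motif (TTTCGCGC, TTTGGCGC, TTTCCCGC or TTTGCCGC), to the cyclic AMP response element TGACGTCA or to the SMAD-binding letters CAGACA. The second window of *Cdkn1a* is shown, the first having none of these matches. *Cdkn2a* has a start site for each of its transcripts, the upstream one for p19ARF and the downstream one for p16INK4a.
Cdkn1a, chr17:29093519-29093818, plus strand: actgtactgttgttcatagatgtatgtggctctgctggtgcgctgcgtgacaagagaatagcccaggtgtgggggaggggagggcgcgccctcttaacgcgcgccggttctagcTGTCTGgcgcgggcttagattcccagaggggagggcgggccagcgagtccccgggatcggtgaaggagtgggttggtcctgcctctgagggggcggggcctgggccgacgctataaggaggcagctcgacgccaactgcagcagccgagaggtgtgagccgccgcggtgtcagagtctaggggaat
Cdkn2a upstream, chr4:89294570-89294869, minus strand: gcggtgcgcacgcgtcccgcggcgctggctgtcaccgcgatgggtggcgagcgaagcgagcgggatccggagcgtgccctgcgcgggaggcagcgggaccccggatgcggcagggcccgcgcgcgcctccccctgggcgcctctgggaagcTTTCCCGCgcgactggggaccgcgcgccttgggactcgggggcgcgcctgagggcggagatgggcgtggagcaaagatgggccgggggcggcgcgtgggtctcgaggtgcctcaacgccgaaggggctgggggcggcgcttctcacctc
Cdkn2a downstream, chr4:89282143-89282442, minus strand: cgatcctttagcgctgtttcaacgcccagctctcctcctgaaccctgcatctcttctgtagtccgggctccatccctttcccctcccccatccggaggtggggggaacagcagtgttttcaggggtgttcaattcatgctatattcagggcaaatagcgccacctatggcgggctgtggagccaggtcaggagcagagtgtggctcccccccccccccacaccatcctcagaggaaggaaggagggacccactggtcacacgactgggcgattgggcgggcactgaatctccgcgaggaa
Cdkn2b, chr4:89310983-89311282, minus strand: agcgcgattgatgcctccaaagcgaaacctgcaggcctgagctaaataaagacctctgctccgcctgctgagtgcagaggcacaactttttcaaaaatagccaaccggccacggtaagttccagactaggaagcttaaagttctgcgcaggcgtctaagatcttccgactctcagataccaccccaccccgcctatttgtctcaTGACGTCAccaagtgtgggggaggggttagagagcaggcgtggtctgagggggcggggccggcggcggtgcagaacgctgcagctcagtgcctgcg
The *Cdkn1a* window held a SMAD match (TGTCTG) at −136 from the start site, and 21.0% of 32851 windows of the same length held such letters. The upstream *Cdkn2a* window held an E2F match at −99 (2.26% of windows had one), and the *Cdkn2b* window a cyclic AMP response element at −46 (1.79% of windows). No E2F, SMAD or cyclic AMP letters were in the downstream *Cdkn2a* window. All 4 windows held the Sp1 motif GGGCGG or its complement, as did 35.7% of all windows. None of the 4 held the AP-1 motif TGANTCA or the TATA motif TATAAA. Such a match is a string of letters and not a measured site, and the 3 genes shared none of the capitals.

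The libraries held 5084715 to 7612532 counts on genes, with 16748 to 19943 genes detected and 22.7% to 29.4% of the counts on ribosomal RNA genes. The chi-square between replicates was 6.82 to 8.70 per degree of freedom, above sampling noise, and no library was counted as a duplicate. Values are CPM, the count of a gene relative to its library size after edgeR's TMM scaling. The library kit reads 1 tag near the 3′ end of a transcript, so CPM does not grow with transcript length and levels of different genes are compared as tags. The floor of detection was set at 3 counts in a library, which was 0.371 to 0.591 CPM. The epithelial markers *Epcam*, *Krt8*, *Krt18*, *Krt5*, *Foxn1*, *Psmb11*, *Cdh1*, *Ly75* and *Prss16* were detected in all 8 libraries. Markers of thymocytes summed to 711 and 317 CPM in the *in vivo* libraries and to between 3.08 and 10.6 CPM in the cultured ones. In bulk RNA, fewer cells of a type and less RNA per cell cannot be told apart.

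Proliferation genes ordered the groups with D3 organoids highest and 2D lowest. Over 26 markers the mean log2(CPM + 1) was 7.07 and 6.94 in D3 organoids, 6.34 and 6.15 *in vivo*, 5.96 and 5.87 in D7 organoids, and 5.29 and 4.98 in 2D. No library of one group overlapped another group, although the D7 and *in vivo* levels lay close together. *Mki67*, which encodes the Ki67 antigen of cycling cells, was at 347 ± 16.3 CPM (SD, n = 2) in D3 organoids, 283 ± 10.2 *in vivo*, 210 ± 36.6 in D7 organoids and 67.2 ± 1.67 in 2D. Calls were made with the quasi-likelihood test of edgeR on 14504 genes, at a Benjamini-Hochberg adjusted p of at most 0.05. All 26 markers were called lower in 2D than in D3 organoids, and 24 of 26 fell between D3 and D7, the exceptions being *Cdc20* and *Tpx2*. Of the 26, 17 were higher in D7 organoids than in 2D. The number that fell between D3 and D7 was 16 at the fewest, without D7 replicate 1. With 2 libraries a group, an exact two-sided test of a single gene cannot go below p = 0.333, so the test leans on the spread shared across genes and groups.

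Most of the 10 genes differed between 2D and either organoid day, and fewer passed the test between D7 and D3 organoids. Between 2D and D3 organoids 9 of the 10 genes passed the test, where 19.1% of all genes were higher in 2D and 19.3% lower. *Ccnd1*, *Cdkn1a*, *Cdkn2a* and *Cdkn2b* were higher in 2D, and *Ccnd2*, *Ccne1*, *Ccne2*, *Cdkn1b* and *Cdkn2c* were lower. Between D7 and D3 organoids 3 of 10 passed, all lower in D7 organoids (*Ccnd1*, *Ccne1* and *Cdkn1a*), where 10.9% of all genes were higher and 9.9% lower. The count of genes higher in D7 organoids was 0 by edgeR, by limma-voom and by DESeq2's Wald test, and 1, *Cdkn2a*, had an unadjusted p below 0.05 in edgeR. Between D7 organoids and 2D 9 passed, 4 higher in D7 organoids and 5 lower (24.4% and 21.1% of all genes). The median log2 fold change of the 10 genes was −0.55 in 2D over D3 organoids, where all genes had −0.02, and −0.20 in D7 over D3 organoids, where all genes had 0.06. Comparisons that share a group are not independent of each other.

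**Figure D1:**
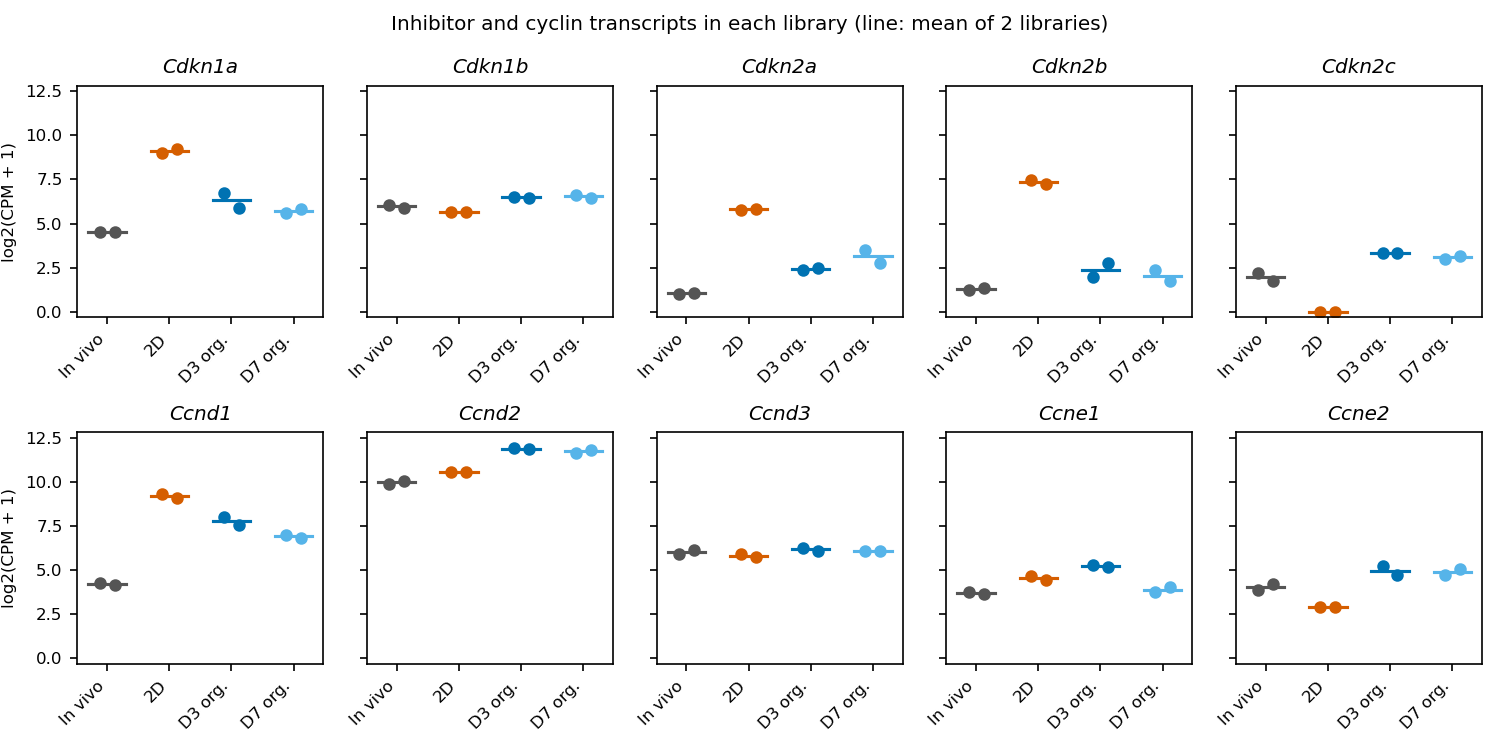
Level of each of the 10 genes as log2(CPM + 1) in the 8 libraries, 1 point per library and a line at the mean of each group of 2. *Cdkn1a*, *Cdkn2a* and *Cdkn2b* stand highest in 2D, *Cdkn2c* is at 0 in both 2D libraries, and *Ccnd3* is nearly level across groups.

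*Cdkn1a*, which encodes p21, was the most abundant inhibitor in 2D. Its level was 518 and 588 CPM in 2D, 107 and 58.1 CPM in D3 organoids, 47.6 and 56.7 CPM in D7 organoids, and 21.7 and 22.2 CPM *in vivo*. Both 2D libraries stood far above all others, the *in vivo* pair was lowest, and the D3 libraries lay further apart in ratio than any other pair. The gene was 6.73-fold higher in 2D than in D3 organoids (log2 fold change 2.75, SE 0.22, adjusted p = 3.91e-08, edgeR). It was 10.6-fold lower in D7 organoids than in 2D (−3.41, SE 0.23, adjusted p = 3.47e-09). From D3 to D7 organoids it fell by 0.66 on the log2 scale (SE 0.22, adjusted p = 0.0435). That call was lost under limma-voom (adjusted p = 0.0559) and without D3 replicate 1, the higher of the D3 pair (−0.16, adjusted p = 0.634), as well as without either 2D or either D7 library (adjusted p of 0.0636 to 0.226). The gene spans bases 29309936 to 29319701 of chromosome 17 on the plus strand (GRCm39).

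*Cdkn1b*, which encodes p27, went the other way in 2D. It was at 48.8 and 49.1 CPM in 2D, 91.6 and 87.8 CPM in D3 organoids, 97.5 and 87.3 CPM in D7 organoids and 65.8 and 57.8 CPM *in vivo*. The 2D pair was lowest, and the D3 and D7 libraries overlapped. It was 1.83-fold lower in 2D than in D3 organoids (log2 fold change −0.87, SE 0.17, adjusted p = 0.000594) and 1.89-fold above 2D in D7 organoids (0.92, SE 0.17, adjusted p = 0.000322). Between D7 and D3 organoids the log2 fold change was 0.04 (SE 0.17, adjusted p = 0.889), a value that changes sign with the scaling. *Cdkn1b* lies on chromosome 6, from 134897364 to 134902476.

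*Cdkn2a* and *Cdkn2b* are neighbours on chromosome 4, at 89192708 to 89212890 and 89223204 to 89229276, both on the minus strand. *Cdkn2a* was at 53.5 and 56.7 CPM in 2D, 10.3 and 5.91 CPM in D7 organoids, 4.21 and 4.60 CPM in D3 organoids, and 1.04 and 1.12 CPM *in vivo*. The groups did not overlap, and the D7 libraries, with 83 and 30 counts, were the most uneven pair. *Cdkn2a* was 12.4-fold higher in 2D than in D3 organoids (log2 fold change 3.64, SE 0.31, adjusted p = 6.88e-08) and 6.65-fold lower in D7 organoids than in 2D (−2.73, SE 0.29, adjusted p = 8.05e-07). Of the 5 inhibitors among the 10 genes it came closest to a higher level at D7, with a D7 over D3 log2 fold change of 0.90 (SE 0.33) and an adjusted p of 0.0597. *Cdkn1c*, an inhibitor outside the 10 genes, was higher at D7 (1.48, adjusted p = 7.41e-05, edgeR). For *Cdkn2a* in D7 over D3 organoids the adjusted p was 0.0474 to 0.157 under the other normalizations, tests, filters, fits and the replicate block. Its log2 fold change was 0.42 to 1.22 as single libraries were left out, lowest without D7 replicate 1. Its annotated transcripts differ in the first exon and share the last one, where the tags fall, so p16INK4a and p19ARF cannot be told apart in these counts.

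*Cdkn2b*, the gene of p15INK4b, differed more between 2D and D3 organoids than the other inhibitors detected in both. It was at 176 and 148 CPM in 2D, 2.86 and 5.71 CPM in D3 organoids, 4.08 and 2.36 CPM in D7 organoids, and 1.39 and 1.55 CPM *in vivo*. Outside 2D the gene rested on 8 to 41 counts a library, and the D3 and D7 libraries overlapped. It was 37.0-fold higher in 2D than in D3 organoids (log2 fold change 5.21, SE 0.29, adjusted p = 4.52e-10) and 48.1-fold lower in D7 organoids than in 2D (−5.59, SE 0.30, adjusted p = 2.15e-10). The D3 libraries held 17 and 41 counts, and the log2 fold change of 2D over D3 organoids was 4.82 without D3 replicate 1 and 5.80 without D3 replicate 2. Its log2 fold change from D3 to D7 organoids was −0.38 (SE 0.36, adjusted p = 0.510), and 0.16 without D3 replicate 2.

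*Cdkn2c*, the gene of p18INK4c, had no read in either 2D library. It was at 8.93 and 9.06 CPM in D3 organoids, 7.05 and 8.08 CPM in D7 organoids and 3.64 and 2.39 CPM *in vivo*, on 17 to 65 counts a library. Every organoid and *in vivo* library was above the floor, and both 2D libraries, at 0 counts, were below it. Over the mean of the floors of 3 counts in the 2D libraries, D3 organoids were at least 16.4-fold higher than 2D, and D7 organoids at least 13.8-fold (adjusted p = 8.93e-06 and 1.27e-05), a bound that covers counting error only. Between the organoid days the log2 fold change, D7 over D3, was −0.25 (SE 0.48, adjusted p = 0.767). *Cdkn2c* lies on chromosome 4 at 109517957 to 109524386, away from the *Cdkn2a* and *Cdkn2b* pair.

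**Figure D2:**
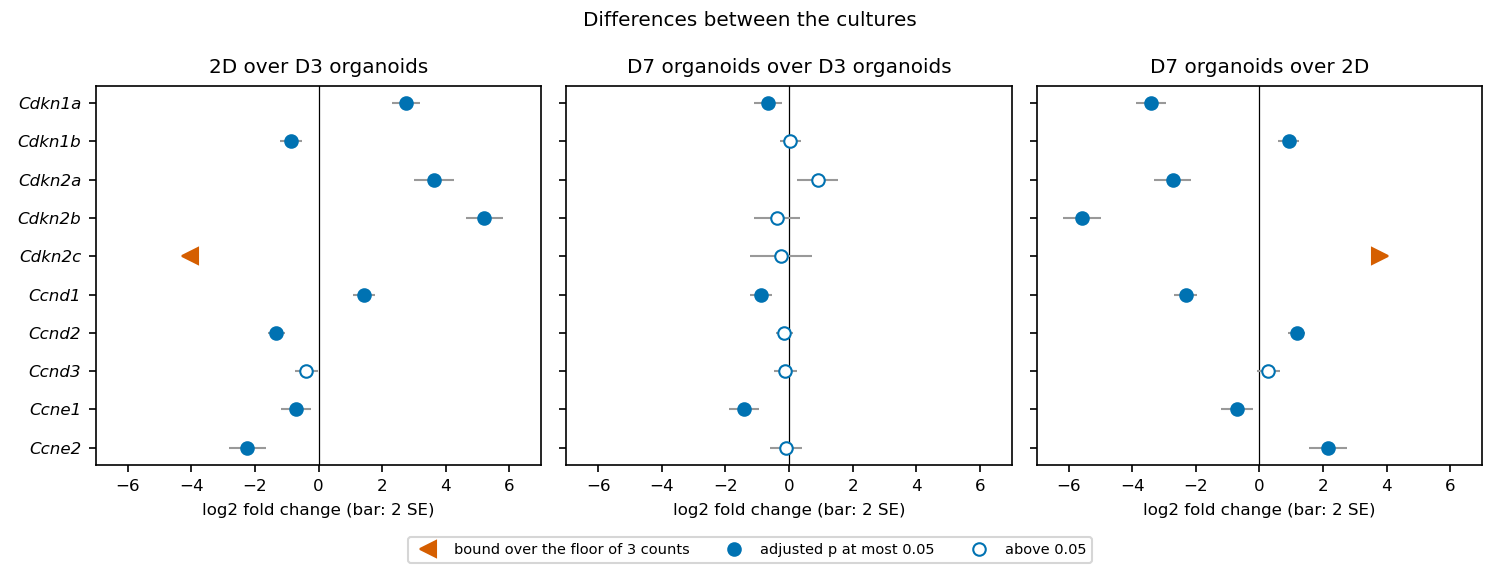
Log2 fold changes of the 10 genes in the 3 comparisons between cultures, with bars of 2 SE, filled points for an adjusted p of at most 0.05 and triangles for the bound of *Cdkn2c* against 2D over the floor of 3 counts. *Cdkn1a*, *Cdkn2a* and *Cdkn2b* lie to the right in 2D over D3 organoids (2.75, 3.64 and 5.21), while in D7 over D3 organoids only *Ccnd1*, *Ccne1* and *Cdkn1a* are filled, all to the left.

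The make-up of the inhibitor transcripts changed with them. Summed over the 5 genes, the inhibitors were at 796 and 843 CPM in 2D, 214 and 165 CPM in D3 organoids, 166 and 160 CPM in D7 organoids and 93.5 and 85.1 CPM *in vivo*. The D3 and D7 sums overlapped. *Cdkn1a* made up 67.4% ± 3.41 (SD, n = 2) of the sum in 2D and *Cdkn2b* 19.9% ± 3.20. *Cdkn1b* had the largest mean share of these 5 genes in the other groups. It held 47.9% ± 7.32 in D3 organoids, 56.5% ± 2.91 in D7 organoids and 69.1% ± 1.68 *in vivo*. The third Cip/Kip gene, *Cdkn1c*, is not in this sum. Its mean was 169 CPM *in vivo*, 131 in D7 organoids and 111 in 2D, each above *Cdkn1b* (61.8, 92.4 and 48.9). In D3 organoids *Cdkn1c*, at 47.2 CPM, was below *Cdkn1b*, at 89.7 CPM. In D3 organoids the *Cdkn1a* and *Cdkn1b* shares overlapped between libraries. The summed INK4 genes rested almost wholly on *Cdkn2a* and *Cdkn2b* in 2D, at 217 ± 17.4 CPM, and stood at 17.7 ± 2.38 CPM in D3 and 18.9 ± 3.57 CPM in D7 organoids.

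Among the D-type cyclins *Ccnd2* was the main transcript in every group. It was at 3861 and 3691 CPM in D3 organoids, 3210 and 3575 CPM in D7 organoids, 1530 and 1481 CPM in 2D and 957 and 1070 CPM *in vivo*, and in each group it ranked among the 45 highest genes tested. The organoid libraries were all above the 2D libraries, and these above the *in vivo* ones. *Ccnd2* was 2.51-fold lower in 2D than in D3 organoids (log2 fold change −1.33, SE 0.14, adjusted p = 6.26e-07) and 2.25-fold above 2D in D7 organoids (1.17, SE 0.14, adjusted p = 2.25e-06). Its log2 fold change between D7 and D3 organoids was −0.15 (SE 0.13, adjusted p = 0.461). The gene spans 127102125 to 127129156 of chromosome 6.

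*Ccnd1*, the D-type cyclin most tied to mitogen signals, was highest in 2D and lowest *in vivo*. It was at 648 and 541 CPM in 2D, 255 and 184 CPM in D3 organoids, 128 and 111 CPM in D7 organoids, and 18.4 and 17.0 CPM *in vivo*. The 4 groups did not overlap. It was higher in 2D than in D3 organoids by a log2 fold change of 1.44 (SE 0.17, adjusted p = 4.38e-06) and fell by 0.88 on the log2 scale from D3 to D7 organoids (SE 0.17, adjusted p = 0.00194). D7 organoids were 4.97-fold below 2D (−2.31, SE 0.18, adjusted p = 1.80e-08). Its share of D-type cyclin CPM was 27.5% ± 2.04 (SD, n = 2) in 2D, 5.38% ± 0.996 in D3 organoids, 3.35% ± 0.561 in D7 organoids and 1.62% ± 0.216 *in vivo*, beside 69.9% ± 2.13 for *Ccnd2* in 2D and 92.5% to 94.8% elsewhere. On chromosome 7, at 144483668 to 144493662, the last exon of *Ccnd1* overlaps LTO1 on the other strand, which had 38 to 83 counts, against 106 to 3572 for *Ccnd1*.

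*Ccnd3*, the third D-type cyclin, passed the test in no comparison. Its level was 76.7 and 67.1 CPM in D3 organoids, 66.0 and 67.0 CPM in D7 organoids, 59.9 and 69.5 CPM *in vivo* and 58.4 and 51.5 CPM in 2D. The 2D libraries were lowest without overlap, by a log2 fold change of −0.39 against D3 organoids (SE 0.18, adjusted p = 0.0957). Scaled by library totals alone, a setting that moves the median of all genes by −0.29 in that comparison, the value was −0.65 (adjusted p = 0.00897). The *Ccnd3* gene is on chromosome 17 at 47815767 to 47910624. Its last exon overlaps *Bysl* on the other strand (61 to 151 counts against 278 to 534 for *Ccnd3*). Of its 50-base words near the 3′ end, 6.31% also occur in the pseudogene *Ccnd3-ps*, which had 0 counts. *Ccne1* and *Cdkn2c* shared 2.87% and 2.06% of such words with other genes, which had up to 4300 and 2827 counts in a library.

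**Figure D3:**
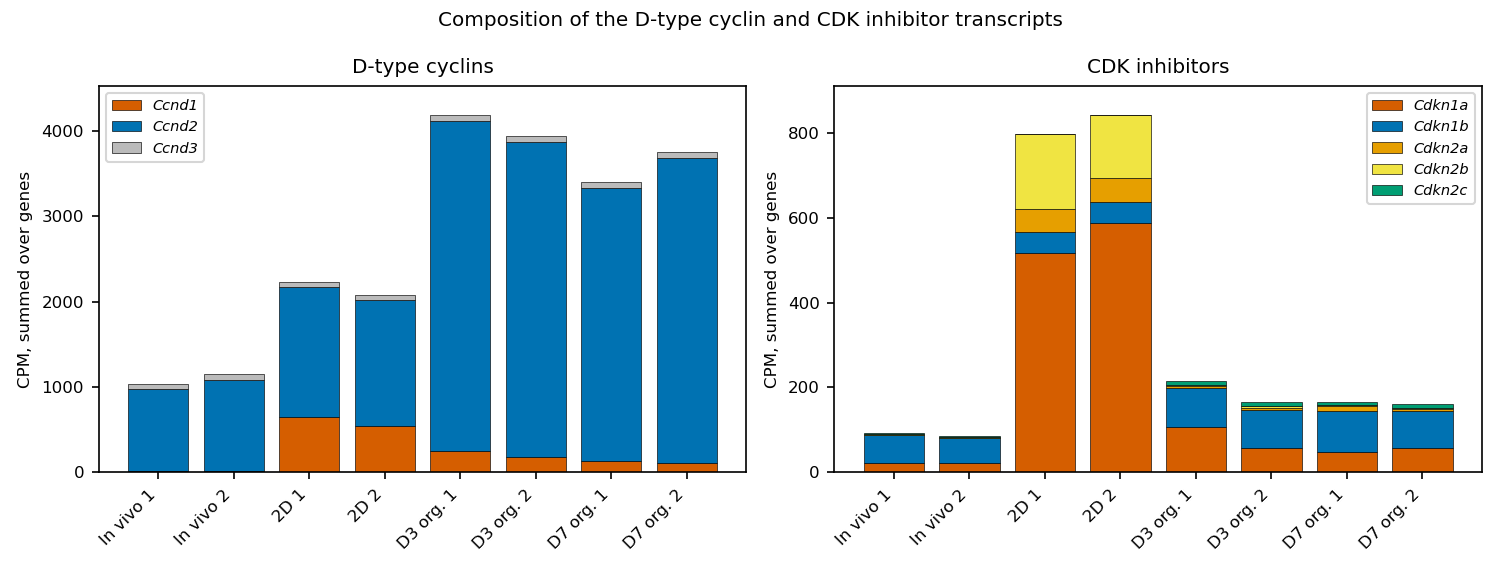
Stacked CPM of the 3 D-type cyclins (left) and the 5 CDK inhibitors (right) in each of the 8 libraries. *Ccnd2* fills most of every D-type bar, *Ccnd1* takes 29.0% and 26.1% of the 2D bars, and *Cdkn1a* with *Cdkn2b* fills most of the inhibitor bars in 2D.

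The E-type cyclins separated from each other in culture. *Ccne1* was at 38.4 and 35.4 CPM in D3 organoids, 24.7 and 20.4 CPM in 2D, 12.5 and 15.4 CPM in D7 organoids, and 12.5 and 11.7 CPM *in vivo*. *Ccne2* was at 36.9 and 24.9 CPM in D3 organoids, 25.8 and 32.3 CPM in D7 organoids, 13.5 and 17.7 CPM *in vivo* and 6.53 and 6.48 CPM in 2D. Thus *Ccne1* was lowest *in vivo* and in D7 organoids, which overlapped, and *Ccne2* was lowest in 2D, with the D3 and D7 libraries overlapping. From D3 to D7 organoids *Ccne1* fell by 1.41 on the log2 scale (SE 0.24, adjusted p = 0.000657), and the log2 fold change of *Ccne2* was −0.09 (SE 0.26, adjusted p = 0.850). In 2D over D3 organoids *Ccne2* fell by 2.24 (SE 0.29, adjusted p = 1.10e-05) and *Ccne1* by 0.71 (SE 0.24, adjusted p = 0.0240). The *Ccne1* call in 2D was lost under DESeq2's Wald test (adjusted p = 0.0502) and without D3 replicate 1, D3 replicate 2 or 2D replicate 2 (adjusted p = 0.109, 0.0564 and 0.161).

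Set against 2D, D7 organoids had 4.44-fold more *Ccne2* (log2 fold change 2.15, SE 0.30, adjusted p = 1.53e-05) and 1.63-fold less *Ccne1* (−0.70, SE 0.25, adjusted p = 0.0283). The *Ccne1* value missed the threshold without 2D replicate 1 (adjusted p = 0.168), without either D7 library (0.206 and 0.0526) and with library totals alone (0.109). *Ccne1* made up 77.5% ± 2.27 (SD, n = 2) of E-type CPM in 2D, 54.8% ± 5.41 in D3 organoids, 43.9% ± 5.86 *in vivo* and 32.4% ± 0.247 in D7 organoids. The genes lie at 37797404 to 37808264 of chromosome 7 (*Ccne1*) and 11190303 to 11204947 of chromosome 4 (*Ccne2*). The last exon of *Ccne2* overlaps *Ints8* on the other strand (65 to 131 counts, against 35 to 219 for *Ccne2*), and *Ccne1* overlaps 1600014C10Rik outside its last exon (33 to 353 counts). The sources used here do not give the strand setting of the counting, so part of these counts may belong to the partner gene.

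Inhibitor transcripts relative to D-type cyclins were highest in 2D. Per 100 CPM of D-type cyclins there were 35.6 and 40.6 CPM of the 5 inhibitors in 2D, 9.03 and 7.36 CPM *in vivo*, 5.11 and 4.19 CPM in D3 organoids and 4.89 and 4.27 CPM in D7 organoids. The D3 and D7 ratios overlapped for these 5 genes, but not once the third Cip/Kip gene, *Cdkn1c*, was added, a sum chosen after its values were seen. With *Cdkn1c* the inhibitors summed to 311 and 277 CPM in D7 organoids and 269 and 205 CPM in D3 organoids, and the ratios were 9.14 and 7.39 in D7 and 6.42 and 5.19 in D3 organoids. Neither the sums nor the ratios of the organoid days then overlapped. With the fourth INK4 gene, *Cdkn2d*, added as well, the sums overlapped again (330 and 294 CPM in D7 and 307 and 236 CPM in D3 organoids), and the ratios did not (9.70 and 7.84 against 7.31 and 5.99). The 2D libraries were highest in each version. With *Cdkn1c* the *in vivo* sums were 260 and 256 CPM, within the span of the D3 libraries and no longer the lowest. The *in vivo* ratios were then 25.1 and 22.1, against 40.0 and 46.7 in 2D. All are ratios of tags and not of proteins.

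**Figure D4:**
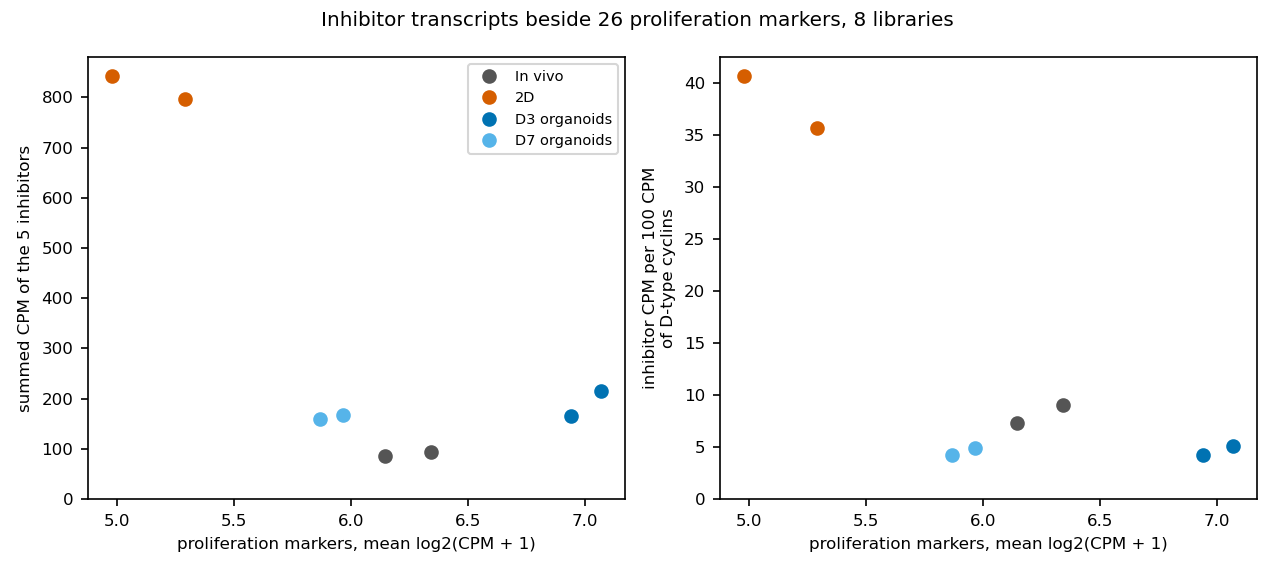
Summed CPM of the 5 inhibitors (left) and their CPM per 100 CPM of D-type cyclins (right) against the mean log2(CPM + 1) of 26 proliferation markers, 1 point for each of the 8 libraries. The 2D libraries sit apart at the upper left, while the D7 libraries, at 5.96 and 5.87 on the horizontal axis, have summed levels of these 5 genes (166 and 160 CPM) near or below those of the D3 libraries (214 and 165 CPM).

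*In vivo* TECs had the lowest levels of most of the 10 genes. Against D3 organoids 9 of 10 were lower *in vivo* and none was higher, by edgeR, limma-voom or DESeq2 or at an unadjusted p below 0.05, where 14% of all genes were higher and 14.1% lower. Against D7 organoids 7 were lower and again none higher by the same tests (16.8% and 18% of all genes), and against 2D 2 were higher, *Ccne2* and *Cdkn2c*, and 6 lower (21.7% and 19.9%). The median log2 fold change of the 10 genes was −1.59, −1.21 and −0.73 in these comparisons, beside 0.01, −0.01 and 0.06 for all genes. *Ccnd1* was 12.4-fold lower *in vivo* than in D3 organoids (log2 fold change −3.63, SE 0.20, adjusted p = 4.88e-10) and 33.6-fold lower than in 2D (−5.07, SE 0.21, adjusted p = 8.08e-12). *Cdkn2b* was 109-fold lower *in vivo* than in 2D (−6.76, SE 0.34, adjusted p = 6.78e-11), *Cdkn2a* 49.8-fold (−5.64, SE 0.38, adjusted p = 2.29e-09) and *Cdkn1a* 25.2-fold (−4.65, SE 0.25, adjusted p = 1.80e-10). *Cdkn2a* and *Cdkn2b* had only 6 to 11 counts in an *in vivo* library.

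Some of the *in vivo* calls rested on few counts or on single libraries. *Cdkn2b* was lower *in vivo* than in D7 organoids at an adjusted p of 0.0473, which rose to as much as 0.448 without D7 replicate 1 and to 0.253 under limma-voom. *Cdkn2b* and *Cdkn2a* against D3 organoids were lost under limma-voom (adjusted p = 0.137 and 0.0570) and when the fit held just the 4 libraries compared (0.180 and 0.0817), *Cdkn2b* also without D3 replicate 2 (0.167). *Cdkn2c* against D3 organoids, at 0.0303, was lost without *in vivo* replicate 2 or any one organoid library (0.0647 to 0.116). *Cdkn1b* was lost against D3 organoids without *in vivo* replicate 2 or D3 replicate 1 (0.115 and 0.0929) and against D7 organoids without *in vivo* replicate 2 or D7 replicate 1 (0.0761 and 0.0996). *Ccne2* was lost against D3 organoids without *in vivo* replicate 1 or D3 replicate 1 (0.0750 and 0.153) and against D7 organoids without *in vivo* replicate 1 or D7 replicate 2 (0.108 and 0.141). *Ccne1* against 2D missed the threshold without 2D replicate 1 (0.0714).

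The *in vivo* libraries also differed from the cultured ones in other cells. Of 14 thymocyte markers, 1 or 2 were at 0 in an *in vivo* library and 6 to 10 in a cultured one, and *Rag1*, which cuts antigen receptor genes in immature lymphocytes, was at 286 and 133 CPM *in vivo* and at 0 to 2.36 CPM in culture. The summed markers of mesenchyme were at 68.3 to 96.1 CPM *in vivo* and 22.2 to 81.4 CPM in culture, highest in D7 organoids among the cultures. Those of endothelium, erythroid and myeloid cells were at 4.68 to 11.2 CPM *in vivo* and 0 to 12.5 CPM in culture. The part of these cells in the levels of the 10 genes was not tested.

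Most other genes of G1/S control were lower in 2D and in D7 organoids than in D3 organoids, and *Cdkn1c* was higher in both. Of 29 such genes, 18 were lower and 3 higher in 2D than in D3 organoids (*Cdk6*, *Cdkn1c* and *Fbxw7*), and 19 were lower and 1 higher at D7 than at D3. The median log2 fold changes were −0.80 and −0.91, beside −0.02 and 0.06 for all genes. Of all genes, 19.3% were called lower and 19.1% higher in 2D, and 9.9% lower and 10.9% higher at D7. The gene higher at D7 was *Cdkn1c*, which encodes the third Cip/Kip inhibitor, p57. It was at 145 and 117 CPM in D7 organoids, 54.9 and 39.4 CPM in D3 organoids, 97.7 and 125 CPM in 2D and 166 and 171 CPM *in vivo*. The D3 libraries were the lowest, and the D7 and 2D libraries overlapped. *Cdkn1c* was higher than in D3 organoids by a log2 fold change of 1.48 in D7 organoids (SE 0.19, adjusted p = 7.41e-05), 1.24 in 2D (SE 0.19, adjusted p = 7.38e-05) and 1.84 *in vivo* (SE 0.20, adjusted p = 1.33e-06). Its value in D7 over D3 organoids stayed between 1.19 and 1.73 and its adjusted p at 0.00340 or below in every alternative run. Some markers of other cells also rose from D3 to D7 organoids. The 9 mesenchyme markers summed to 26.4 and 22.2 CPM in D3 organoids and 81.4 and 74.3 CPM in D7 organoids. Most of the D7 sum came from *Dcn*. This gene was at 7.08 and 3.34 CPM in D3 and 53.4 and 50.8 CPM in D7 organoids (adjusted p = 1.18e-05, edgeR). Of the 7 mesenchyme markers that could be tested, 3 rose from D3 to D7 (*Dcn*, *Lum* and *Col3a1*). *Pdgfra* and *Pdgfrb* were below 1 CPM in the organoid libraries. Among those not called, *Thy1* and *Col1a1* had log2 fold changes of 2.73 and 0.55, and *Col1a2* and *Twist1* of −0.83 and −0.94. In 2D over D3 organoids, where *Cdkn1c* was also higher, 3 of the 7 were higher and 1, *Lum*, lower. *Dcn* was not called there (−0.75). *Lyz2*, the 1 myeloid marker of 7 that could be tested, was at 0.337 and 0 CPM in D3 and 12.1 and 10.2 CPM in D7 organoids (adjusted p = 0.00134), and *Csf1r* and *Adgre1* were at 0 in both. Their part in the level of *Cdkn1c* was not tested. Without D3 replicate 1 the number of G1/S genes that fell between D3 and D7 was 9 in place of 19.

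The remaining INK4 gene and the kinases differed from each other as well. *Cdkn2d*, which encodes p19INK4d, fell by 2.18 on the log2 scale in 2D (SE 0.26, adjusted p = 4.60e-06) and by 0.94 in D7 organoids (SE 0.24, adjusted p = 0.0111), both against D3 organoids, the latter with an adjusted p of up to 0.126 without D7 replicate 2. *Cdk6* was at 277 and 318 CPM in 2D, 41.8 and 48.5 CPM in D3 organoids, 40.2 and 30.7 CPM in D7 organoids and 192 and 137 CPM *in vivo*. It was higher in 2D than in D3 organoids by 2.72 (SE 0.20, adjusted p = 1.17e-08), while *Cdk4*, the other partner of D-type cyclins, fell by 0.62 (SE 0.16, adjusted p = 0.00420). *Fbxw7*, a ubiquitin ligase subunit that targets cyclin E, was higher in 2D by 0.77 (adjusted p = 0.000948). *Ccna2*, the A-type cyclin of S phase and an E2F target, fell by 2.41 in 2D and by 1.63 in D7 organoids against D3 organoids (adjusted p of 0.000109 in D7 organoids).

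Genes linked to the regulators of these inhibitors were counted as whole lists. Of all genes, 19.1% were called higher and 19.3% lower in 2D than in D3 organoids, and 10.9% rose and 9.9% fell from D3 to D7. Of 23 p53 targets other than *Cdkn1a*, 12 were higher and 2, *Sesn1* and *Psrc1*, lower in 2D than in D3 organoids (median log2 fold change 1.06, all genes −0.02). From D3 to D7 organoids 2 rose and 2 fell (median −0.06, all genes 0.06). The most abundant were *Perp*, *Ccng1*, *Mdm2* and *Trp53inp1*, and all 4 were higher in 2D (0.73, 1.07, 1.06 and 1.06). Those that rose to D7 were *Sesn2* and *Eda2r*, and those that fell *Plk2* and *Psrc1*. Of the 12 TGF-beta targets, 11 could be tested, of which 6 were higher and 1, *Ltbp2*, lower in 2D than in D3 organoids (median log2 fold change 0.57, all genes −0.02). Among them *Pmepa1* was at 965 and 1042 CPM in 2D and 11.3 to 17.2 CPM in organoids, a log2 fold change of 6.17 over D3 organoids (adjusted p = 6.08e-12). *Skil* was higher in 2D by 1.45 (adjusted p = 3.28e-06), *Ski* was not called (0.30, adjusted p = 0.183) and neither was *Ltbp3* (0.22, adjusted p = 0.415). From D3 to D7 organoids *Ltbp2* and *Ltbp3* rose and *Tgif1* and *Tgfbi* fell (median of the list 0.02, all genes 0.06).

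Most of the tested genes that are often followed in senescent cells, in which p16INK4a and p21 are high, passed the test between 2D and D3 organoids. Of 16, 12 could be tested, and 7 were higher and 4 lower in 2D (median log2 fold change 1.75, all genes −0.02), where 19.1% of all genes were higher and 19.3% lower. The higher ones were *Timp1*, *Plaur*, *Ccl2*, *Igfbp7*, *Igfbp3*, *Cxcl2* and *Glb1*. *Timp1*, an inhibitor of matrix metalloproteinases, was at 196 and 207 CPM in 2D and 9.43 and 7.66 CPM in D3 organoids (log2 fold change 4.56, adjusted p = 4.02e-09), and *Igfbp7* was at 119 and 100.4 CPM in 2D and 10.1 and 10.7 CPM in D3 organoids (3.39, adjusted p = 6.88e-08). The lower ones were *Lmnb1*, *Hmgb1*, *Hmgb2* and *Igfbp5*, and the list has no single direction, since loss of lamin B1 is itself a known feature of senescent cells. The log2 fold change was −0.93 for *Lmnb1*, the gene of lamin B1 (adjusted p = 0.000197), −0.97 for *Hmgb1* (adjusted p = 0.000129) and −2.50 for *Hmgb2* (adjusted p = 5.28e-09). *Lmnb1* and *Hmgb2* are also high in cycling cells, and 4 of the 16 genes were on too few reads to test. From D3 to D7 organoids 1 of the 12 was called, *Igfbp5*, higher by 2.90 (adjusted p = 8.23e-09), where 10.9% of all genes rose and 9.9% fell. The lists of p53, TGF-beta and senescence genes describe transcripts and measure neither pathway activity nor cell state.

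The genes most like each of the 10 across the 8 libraries were found by Pearson's r of log2 CPM over 9025 genes, as a description, since the libraries fall into 4 groups and share these groups' other differences. *Cdkn1a* was most like *Smurf1* (r = 0.996) and *Arap2* (0.994), *Cdkn2a* like *Cldn3* (0.992) and *Tmbim1* (0.989), and *Cdkn2b* like *Larp4b* (0.997) and *Cnih4* (0.996). *Smurf1* was also on the list of TGF-beta targets. *Cdkn1b* was most like *Tril* (0.994) and *Fam20a* (0.989), and *Cdkn2c* like *Zcchc3* (0.997) and *Nfia* (0.996). *Ccnd1* was most like *Plk2* (0.995), a gene on the p53 list, and *Epcam* (0.993), and *Ccnd2* like *Sema3a* and *Rab13* (0.996 each). *Ccne2* was most like *Lig1* (0.986), a DNA ligase of replication, and *Lmnb1* (0.982), whereas *Ccne1* was most like *Scap* (0.980) and *Aacs* (0.977), genes of sterol sensing and ketone body use. *Ccnd3* passed the test in no comparison and was not matched.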

How the data were processed

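The authors sorted EpCAM-positive TECs from E16.5 thymi, prepared QuantSeq 3′ mRNA libraries, read them on a NextSeq 500 and used STAR to map the reads to GRCm39. They deposited 1 table per library, which holds the raw count of reads on each Ensembl gene. The annotation release, the strand used and the treatment of multiply mapped reads are not given in the sources used here. Gene symbols came from GENCODE M39 (GRCm39), in which 56236 identifiers matched and 687 did not. A gene was tested where 3 or more of the 8 libraries reached 1 CPM, which gave 14504 genes and included all 10 members. The 6 comparisons of 4 groups were made in a single model with edgeR's quasi-likelihood test (R 4.3.3, edgeR 4.0.16), TMM factors of 0.880 to 1.09 and Benjamini-Hochberg adjustment with a threshold of 0.05. The authors' processing notes name R 4.1.2, edgeR and limma, and their test, limma-voom (limma 3.58.1), was run as an alternative, as was DESeq2 1.42.0. Summaries and figures used Python 3.11.15, pandas 2.3.3 and matplotlib 3.10.9. The procedure was tested on simulated counts.

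The 10 members and the gene lists were chosen with earlier results of these data known. From the G1/S, p53, TGF-beta, senescence and mesenchyme lists the text names the 4 tested genes with the highest mean CPM. Of such genes in the proliferation and thymocyte lists it names only *Mki67* and *Rag1*. For each member called in at least 3 comparisons it names the 2 genes with the highest correlation among those with a mean of at least 10 CPM. *Cdc20*, *Tpx2*, *Cdkn2d*, *Ccna2*, *Lum*, *Col3a1*, *Twist1*, *Pdgfra*, *Pdgfrb*, *Csf1r*, *Adgre1*, the senescence genes higher in 2D and the members of counts of 5 or fewer were named after their values were seen. Shared sequence was sought by comparing words of 50 bases within the 3′ most 500 bases of transcripts. Replicate numbers were not treated as pairing, since deviations of same-numbered libraries correlated at 0.0257 to 0.132. Alternatives were other scaling, tests, filters, the 4 libraries compared alone, a replicate block and each library left out. Inhibitor sums with *Cdkn1c* and *Cdkn2d* were added after the data were seen.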

Additional observations from a re-analysis of the deposited data

Results flagged for a closer look

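For *Cdkn2c* and *Ccne2*, *in vivo* TECs differed from 2D and from organoids in opposite directions, and the direct comparison of those cultures passed the edgeR test. *Cdkn2c* was lower *in vivo* than in D3 organoids (log2 fold change −1.58, adjusted p = 0.0303) and higher *in vivo* than in 2D, where it had no read. Over the 2D floor of 3 counts the *in vivo* mean was 5.49-fold higher, and the lower *in vivo* library 4.35-fold. Its fitted log2 fold change in 2D over D3 organoids was −8.82, which depends on the prior count and is no bound. The bound over the floor of 3 counts is that given above.

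*Ccne2* was lower *in vivo* than in D3 and D7 organoids (−0.97 and −0.88, adjusted p = 0.0107 and 0.0162) and higher *in vivo* than in 2D (1.27, adjusted p = 0.00270). The differences between the cultures themselves were −2.24 in 2D over D3 organoids and 2.15 in D7 organoids over 2D. The *in vivo* libraries carried thymocyte transcripts, whose part in these values was not tested.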

How the results depend on the processing

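The 6 counts of members called stayed within 1.5 times of the reported ones under the alternatives run. Of 1011 values of the 60 member results, 949 kept their direction and their side of the threshold, 42 lost the threshold, 9 gained it and 11 changed sign, none of these among the 45 results called. The sign changes were in values close to 0. *Cdkn1b* in D7 over D3 organoids (0.04) was −0.0117 with library totals alone, −0.00504 with TMM without ribosomal RNA genes, −0.0160 with no filter on low counts, −0.00594 in a fit of the 4 libraries compared, and −0.0536 to 0.127 as libraries were left out. With libraries left out, *Cdkn2b* in D7 over D3 organoids ran from −0.880 to 0.163, *Ccne2* from −0.415 to 0.214, and *Ccnd3* in *in vivo* over D7 organoids from −0.147 to 0.0714, which was 0.000238 with TMM without ribosomal RNA genes. The cause was not tested. With library totals alone, the share of called genes that were higher went from 49.7% to 32.7% in 2D over D3 organoids, from 53.6% to 65.2% in D7 organoids over 2D and from 52.2% to 62.8% in *in vivo* over 2D (median log2 fold change of all genes −0.29, 0.31 and 0.23), and *Ccnd3* was then called in the first pair (−0.65 and 0.48) and *Cdkn1b* in the last (0.51). All genes called in D7 over D3 organoids numbered 3011, but 1659 without D3 replicate 1 and 1183 without D7 replicate 2, and in *in vivo* over D7 organoids 5043, but 3015 without D7 replicate 2. The replicate block gave 9, 3, 9, 9, 8 and 7 members called, the same counts as without it, and same-numbered libraries shared only a number. A filter at a mean of 10 CPM left *Cdkn2c* without a value. A library left out makes its partner stand alone, assumed to vary like the other groups. *Cdkn2a*, *Cdkn2b* and *Cdkn2c* outside 2D, at 6 to 83 counts a library, are the values that depth limits most.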
